A study of Mus musculus with 53 samples.

Results

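Thymocytes are the developing T cells of the thymus, and thymic epithelial cells are the stroma that attracts, feeds and selects them. Of 45 listed genes of these 2 cell types, 42 were measured on both kinds of array used in a comparison of mouse epithelial tissues, and 3 were not analysed here. The genes had been selected on their measured levels, which were high in 3 arrays labelled as lung of E18.5 (embryonic day 18.5) embryos, set against trachea and cornea on the same kind of array. Their levels there are therefore given as a description and were not tested. The 42 genes stand among 19938 named genes of the Gene ST arrays and 18194 of the older arrays of the 3' type.

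T-cell progenitors reach the thymus through chemokine receptors, commit to the T lineage under a set of transcription factors, and cut and rejoin their receptor genes with the Rag recombinase. A receptor assembled with the CD3 proteins then signals through a chain of kinases and adaptors, with CD4 and CD8 as its coreceptors. The epithelium around them depends on the transcription factor Foxn1, and no such tissue is part of a normal lung.

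Total RNA of whole tissues was hybridised to 53 arrays in 18 groups of 2 or 3 arrays. The Gene ST arrays held lung and trachea of E18.5 embryos and whole cornea of 7 ages, embryonic (E14.5, E15.5, E17.5) and postnatal (P3, P7, P14, P28), at 3 arrays for each of these 9 groups, all from wild-type CB6 mice. The arrays of the 3' type held proximal small intestine, esophagus and stomach at E18.5 and dorsal skin of 3 ages (E14.5, E16.5, E18.5), all wild-type CB6, and bladder at E14.5 (2 arrays) and E16.5 from wild-type CB6 mice and at E18.5 from Get1 +/- mice, which carry 1 working copy of an epithelial transcription factor gene. Per the series text, cornea, bladder and the skin of E18.5 had been hybridised for earlier work of the laboratory, and the labels do not say whether each array is a separate animal, so p-values measure only the spread between arrays. In the titles of E14.5 skin, replicates 1 and 2 bear a common identifier.

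Markers of the distal lung did not stand above trachea on the lung-labelled arrays. Surfactant protein C (Sftpc), made by the distal lung epithelium, averaged 6.83 on the lung-labelled arrays and 7.32 in trachea (quantile-normalized log2 intensity, n = 3 each). Nkx2-1, a transcription factor of lung, trachea and thyroid alike, averaged 8.70 on the lung-labelled arrays and 8.74 in trachea. Of 16 distal lung epithelial genes, 0 were called higher on the lung-labelled arrays than in trachea and 2 were called lower (Etv5 by a log2 difference of -1.34 and Pdpn by -1.71), where 5.26% of all genes were called higher and 10.8% lower. These counts are near the shares over all genes, and the list's differences from trachea ran from -1.71 to 0.42. A gene was called where limma gave a Benjamini-Hochberg adjusted p under 0.05 and the groups differed at least 2-fold. At an unadjusted p under 0.05 in limma, 7 of the 16 passed, all of them lower on the lung-labelled arrays than in trachea. Against E17.5 cornea, 0 of the 16 were called higher and 2 lower, where 10.8% of all genes were called higher and 12.8% lower. Of 6 lung mesenchyme genes, 0 were called higher than in trachea and 4 lower (Tcf21, Tbx5, Foxf1 and Fgf10). The samples are called lung-labelled here. The 3 lung-labelled arrays had a mean correlation with each other of 0.982 to 0.983 over all probe sets, and the other Gene ST arrays lay between 0.935 and 0.982 within their groups.

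**Figure D1:**
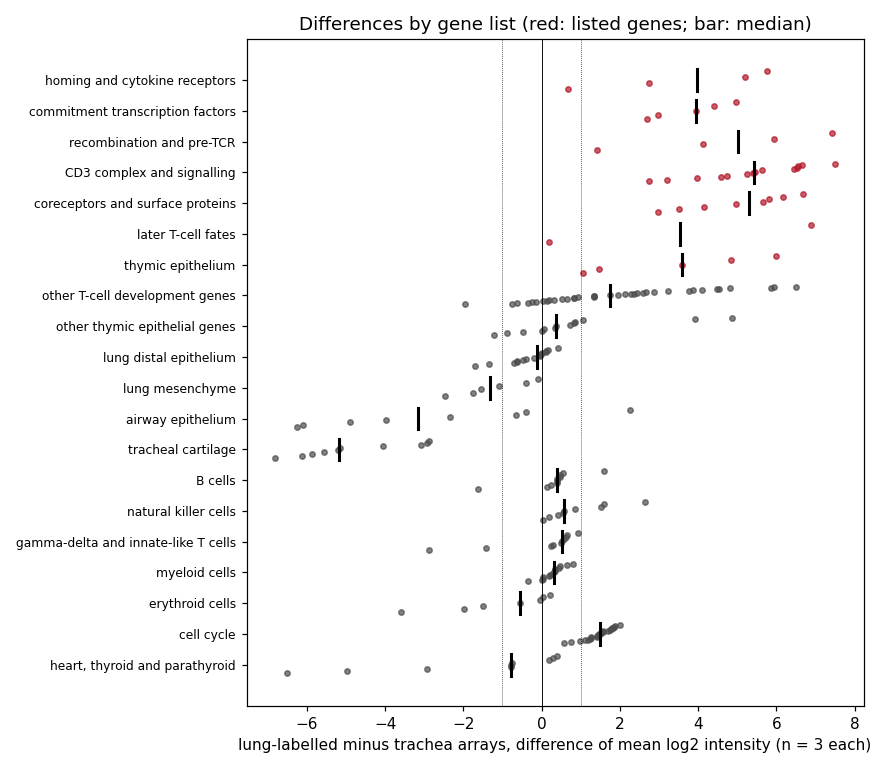
Difference of mean log2 intensity between the 3 lung-labelled and the 3 trachea arrays, 1 point per gene, with the listed genes in red by role, other lists in grey, a bar at each list's median and dotted lines at 2-fold. The medians of the 7 roles lie between 3.54 and 5.43, while the 16 distal lung epithelial genes centre on -0.12.

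On the lung-labelled arrays, 40 of the 42 genes were at least 2-fold higher than in trachea, with no overlap between the arrays of the 2 groups. Of all 19938 genes, 5.23% met the same limits, and since the genes were listed for this difference their share is not read against it. The median difference over the 42 genes was 4.90 on the log2 scale, against 0.06 over all genes. Against E17.5 cornea, 39 of the 42 met these limits, as did 10.8% of all genes. Array source and tissue cannot be told apart in that second comparison, since the cornea arrays came from an earlier study, with maximum intensities of 19313 to 27026, against 37759 to 78718 on the lung-labelled and trachea arrays. Fewer cells of a type and less RNA per cell cannot be told apart in whole tissue. Quantile normalization lowered the difference from trachea, whose median over the 42 genes was 5.55 in the values as deposited.

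**Figure D2:**
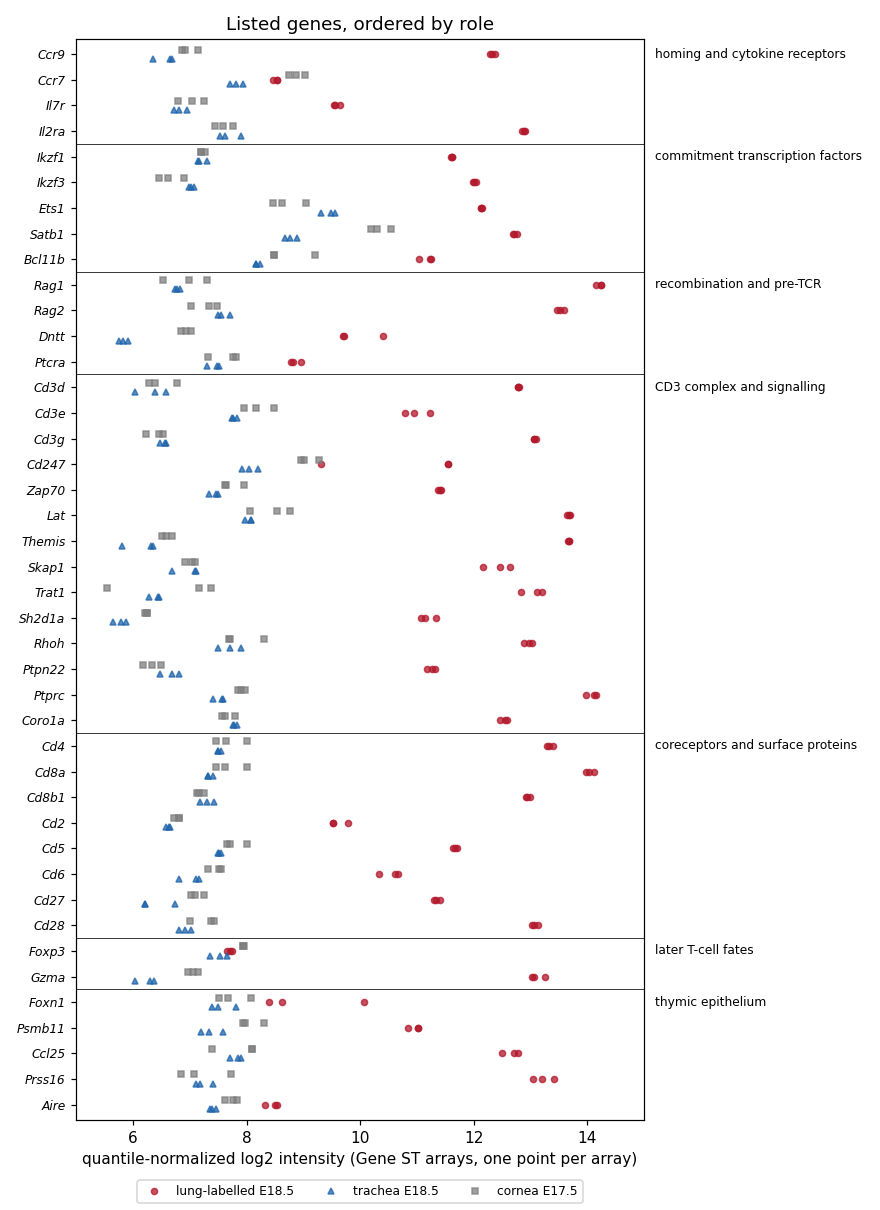
Quantile-normalized log2 intensity of the 42 genes on the Gene ST arrays, with 1 point per array for lung-labelled E18.5, trachea E18.5 and cornea E17.5, in rows ordered by role. The red points stand right of the other groups for all genes but Ccr7 and Foxp3, where E17.5 cornea is higher, and Foxn1, Cd247, Dntt and Ccr7 show how far the rows differ in spread.

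The earliest step in the list is homing. Ccr9, the receptor for the thymic chemokine Ccl25, read 12.33, 12.29 and 12.37 on the lung-labelled arrays, against 6.34, 6.65 and 6.69 in trachea and 6.87, 7.15 and 6.92 in E17.5 cornea. Il2ra, the interleukin-2 receptor chain that marks early thymocytes, read 12.88, 12.91 and 12.85 on the lung-labelled arrays, against 7.90, 7.54 and 7.61 in trachea. Neither gene overlapped between the groups, and the differences from trachea were 5.77 for Ccr9 and 5.20 for Il2ra. Il7r, the receptor chain for the survival factor interleukin-7, was closer, with 9.65, 9.55 and 9.53 on the lung-labelled arrays and 6.71, 6.80 and 6.95 in trachea. Ccr7, which guides thymocytes to the medulla after selection, did not follow them. It read 8.54, 8.46 and 8.54 on the lung-labelled arrays, against 7.95, 7.71 and 7.82 in trachea and 8.75, 9.03 and 8.87 in E17.5 cornea, so the lung-labelled arrays lay between the other 2 groups.

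All 5 measured commitment factors were at least 2-fold higher on the lung-labelled arrays than in trachea. Ikzf3 (Aiolos) showed the largest difference, 4.98, with 12.03, 12.00 and 11.99 on the lung-labelled arrays and 7.02, 7.07 and 6.99 in trachea. Ikzf1 (Ikaros), needed for lymphoid development, differed by 4.41. Bcl11b, which fixes T-lineage commitment, read 11.24, 11.24 and 11.03 on the lung-labelled arrays, against 8.17, 8.16 and 8.23 in trachea, a difference of 2.98. Trachea and cornea were not near the low end for every factor. Satb1, a chromatin organiser, read 12.71, 12.70 and 12.77 on the lung-labelled arrays, against 8.68, 8.76 and 8.89 in trachea and 10.55, 10.31 and 10.19 in E17.5 cornea. Ets1, a factor of many tissues, differed from trachea by 2.69.

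Rag1 and Rag2, the 2 subunits of the recombinase that cuts receptor genes, were among the most different genes. Rag1 read 14.15, 14.25 and 14.25 on the lung-labelled arrays, against 6.77, 6.75 and 6.83 in trachea and 6.99, 7.30 and 6.53 in E17.5 cornea. The difference from trachea was 7.44, or 173-fold. Rag2 read 13.59, 13.51 and 13.47 on the lung-labelled arrays, against 7.50, 7.55 and 7.71 in trachea, a difference of 5.94. Dntt, the terminal transferase that adds bases at the joints, read 10.41, 9.71 and 9.71 on the lung-labelled arrays, where replicate 1 stood above the other 2, against 5.76, 5.91 and 5.82 in trachea. Ptcra, the alpha chain that pairs with the first rearranged receptor chain, was the least different of the 4 at 1.42, with 8.78, 8.96 and 8.82 on the lung-labelled arrays and 7.52, 7.48 and 7.31 in trachea.

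Rag1 and Rag2 are neighbours on opposite strands, with start sites 24820 bases apart in the RefSeq promoter table (GRCm38.p6). Their windows, from 250 bases before to 50 after the start site, are shown because the 2 genes were high together while their promoters differ in the motifs searched. Capitals mark matches on either strand to TGTGGT, a core bound by Runx factors, AGGAAG, bound by Ets factors, and CAGNTG, an E-box bound by E proteins, whose matches may overlap. Rag1 lies at chr2:101649483-101649782, minus strand, and Rag2 at chr2:101624462-101624761, plus strand.
Rag1: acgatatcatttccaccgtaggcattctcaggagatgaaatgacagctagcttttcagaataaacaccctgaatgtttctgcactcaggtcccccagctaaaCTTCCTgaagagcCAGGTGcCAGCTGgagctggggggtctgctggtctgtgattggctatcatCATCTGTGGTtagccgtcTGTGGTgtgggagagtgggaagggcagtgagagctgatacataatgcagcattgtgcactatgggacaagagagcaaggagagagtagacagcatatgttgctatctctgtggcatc
Rag2: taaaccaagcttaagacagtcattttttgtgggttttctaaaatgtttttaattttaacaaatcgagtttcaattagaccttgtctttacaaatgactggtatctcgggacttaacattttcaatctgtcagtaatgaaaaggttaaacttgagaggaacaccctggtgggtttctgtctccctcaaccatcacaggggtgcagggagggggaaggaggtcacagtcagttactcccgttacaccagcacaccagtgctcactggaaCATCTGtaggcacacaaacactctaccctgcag
The Rag1 window held 2 Runx, 1 Ets and 3 E-box matches, and the Rag2 window held 0 Runx, 0 Ets and 1 E-box match. Of all 32851 promoter windows in the table, 16.8% held the Runx letters, 35.4% the Ets letters and 51.4% the E-box letters. Promoter windows were found for 31 of the 42 genes, 44 windows in all, of which 7 held the Runx letters (15.9%), 23 the Ets letters (52.3%) and 27 the E-box letters (61.4%).

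All 14 measured genes of the CD3 complex and its signalling were at least 2-fold higher on the lung-labelled arrays than in trachea, with a median difference of 5.43. Themis, which sets receptor signal strength during selection, had the largest difference of the 42 genes, 7.51 or 183-fold. It read 13.66, 13.67 and 13.67 on the lung-labelled arrays, against 6.32, 5.81 and 6.35 in trachea and 6.50, 6.68 and 6.58 in E17.5 cornea. Ptprc (CD45), a phosphatase of all white blood cells, read 14.12, 13.97 and 14.15 on the lung-labelled arrays, against 7.59, 7.41 and 7.56 in trachea. Both genes were far above the other groups on each lung-labelled array. Lat, the adaptor that links the receptor to its pathways, differed from trachea by 5.63, Zap70, the kinase that binds the CD3 chains, by 3.98, and the adaptor Trat1 by 6.65. The guanosine triphosphatase Rhoh, the phosphatase Ptpn22, the actin regulator Coro1a and the adaptors Skap1 and Sh2d1a lay between 4.60 and 5.45 above trachea.

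The CD3 chains themselves were not equally steady. Cd3d read 12.78, 12.78 and 12.79 on the lung-labelled arrays, against 6.03, 6.58 and 6.39 in trachea, and Cd3g read 13.10, 13.06 and 13.07 on the lung-labelled arrays, against 6.58, 6.56 and 6.47 in trachea. Cd3e differed less, by 3.21, with 10.95, 11.22 and 10.78 on the lung-labelled arrays and 7.82, 7.75 and 7.76 in trachea. Cd247, the zeta chain, was the least even gene of the list, with 11.56, 11.55 and 9.31 on the lung-labelled arrays, against 7.92, 8.05 and 8.20 in trachea and 8.95, 9.28 and 9.01 in E17.5 cornea. Lung-labelled replicate 3 was thus near the cornea arrays for this 1 gene, while its other CD3 chains matched replicates 1 and 2. Over the 42 genes the SD of the 3 lung-labelled arrays had a median of 0.06, from 0.005 to 1.30 for Cd247, against a median of 0.10 over all genes. These medians cover unlike genes, since most of the 42 were bright there and dim genes are among all genes. Quantile normalization, which sets values by rank, also narrows such spreads. Themis, with the SD of 0.005, had deposited intensities from 18984 to 20476 on the lung-labelled arrays.

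Cd3d and Cd3g are neighbours read in opposite directions, with start sites 1355 bases apart, and their promoter windows are shown as a pair with nearly equal differences from trachea (6.45 and 6.54). Cd3g lies at chr9:44980382-44980681, minus strand, and Cd3d at chr9:44981536-44981835, plus strand. Capitals mark the same motifs.
Cd3g: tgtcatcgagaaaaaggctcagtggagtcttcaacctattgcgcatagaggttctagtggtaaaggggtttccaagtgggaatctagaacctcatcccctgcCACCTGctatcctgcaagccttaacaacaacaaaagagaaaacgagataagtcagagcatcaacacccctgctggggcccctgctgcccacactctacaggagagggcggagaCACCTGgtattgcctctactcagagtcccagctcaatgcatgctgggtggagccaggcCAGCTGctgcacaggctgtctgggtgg
Cd3d: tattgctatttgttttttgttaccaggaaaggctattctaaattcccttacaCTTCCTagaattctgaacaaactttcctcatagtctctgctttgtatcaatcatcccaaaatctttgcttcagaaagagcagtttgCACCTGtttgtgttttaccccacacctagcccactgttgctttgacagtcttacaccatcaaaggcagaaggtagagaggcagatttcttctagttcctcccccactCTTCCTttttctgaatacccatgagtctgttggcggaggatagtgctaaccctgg
The Cd3g window held 3 E-box matches and 0 Runx or Ets matches, and the Cd3d window held 2 Ets matches, 1 E-box match and 0 Runx matches.

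The 8 coreceptor and surface genes were all at least 2-fold higher on the lung-labelled arrays than in trachea. Cd8a, a chain of the CD8 coreceptor that binds class I molecules, read 13.97, 14.12 and 14.03 on the lung-labelled arrays, against 7.41, 7.32 and 7.32 in trachea. Its partner Cd8b1 read 12.99, 12.92 and 12.94 on the lung-labelled arrays, against 7.18, 7.30 and 7.42 in trachea. Cd4, the coreceptor for class II molecules, read 13.32, 13.29 and 13.40 on the lung-labelled arrays, against 7.55, 7.50 and 7.50 in trachea. Both coreceptors were therefore high on the same arrays, with differences of 6.69, 5.65 and 5.82 for Cd8a, Cd8b1 and Cd4. The costimulatory receptor Cd28 differed by 6.16, the tumour necrosis factor receptor family member Cd27 by 4.96, and the inhibitory receptor Cd5 by 4.15. Cd6, a relative of Cd5, differed by 3.51, and the adhesion protein Cd2 by 2.99.

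Among the later fates, Gzma, a granzyme of cytotoxic cells, read 13.26, 13.03 and 13.06 on the lung-labelled arrays, against 6.04, 6.30 and 6.37 in trachea, a difference of 6.88. Foxp3, the factor of regulatory T cells, read 7.65, 7.71 and 7.75 on the lung-labelled arrays, against 7.53, 7.35 and 7.65 in trachea and 7.95, 7.93 and 7.93 in E17.5 cornea. For Foxp3 the lung-labelled arrays stood 0.19 above trachea and 0.24 below cornea.

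The 5 thymic epithelial genes differed from trachea by 1.06 to 5.98. Prss16, a serine protease of the cortical epithelium, led with 13.04, 13.41 and 13.20 on the lung-labelled arrays, against 7.18, 7.11 and 7.41 in trachea. Ccl25, the ligand of Ccr9, read 12.49, 12.71 and 12.79 on the lung-labelled arrays, against 7.91, 7.85 and 7.71 in trachea. Its 2 probe sets disagreed in size, with a difference of 4.84 on the brighter and 0.55 on the other. Psmb11, the proteasome subunit found in cortical thymic epithelium, read 10.85, 11.02 and 11.02 on the lung-labelled arrays, against 7.19, 7.59 and 7.34 in trachea. Foxn1 itself was high on 1 array, with 10.07, 8.63 and 8.40 on the lung-labelled arrays, against 7.82, 7.50 and 7.39 in trachea. Aire, which turns on tissue-restricted genes in the medulla, was at the 2-fold limit with 8.51, 8.54 and 8.33 on the lung-labelled arrays, against 7.39, 7.46 and 7.36 in trachea and 7.77, 7.84 and 7.63 in E17.5 cornea. The promoter windows of Cd8a and Psmb11, a thymocyte and an epithelial gene that were both high, are shown with the same motifs in capitals, from chr6:71373177-71373476, plus strand, and chr14:54625060-54625359, plus strand.
Cd8a: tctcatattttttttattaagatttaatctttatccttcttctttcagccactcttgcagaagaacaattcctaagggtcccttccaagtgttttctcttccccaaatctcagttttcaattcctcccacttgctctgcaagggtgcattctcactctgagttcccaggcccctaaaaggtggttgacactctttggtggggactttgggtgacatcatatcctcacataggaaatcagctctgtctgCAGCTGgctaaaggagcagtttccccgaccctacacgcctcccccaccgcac
Psmb11: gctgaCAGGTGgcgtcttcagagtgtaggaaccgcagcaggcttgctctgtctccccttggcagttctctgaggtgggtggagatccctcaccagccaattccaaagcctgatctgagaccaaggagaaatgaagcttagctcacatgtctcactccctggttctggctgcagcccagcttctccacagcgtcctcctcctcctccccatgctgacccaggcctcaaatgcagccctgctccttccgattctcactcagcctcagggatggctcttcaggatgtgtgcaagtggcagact
Each of the 2 windows held 1 E-box match and 0 Runx or Ets matches.

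The margin of a gene was taken as its lowest lung-labelled array minus the highest of the other 24 Gene ST arrays. It was above 0 for 38 of the 42 genes and for 2457 of all 19938, and above 2 for 34 of the 42 and for 156 of all. The 2 largest margins of the table belonged to Themis (6.91) and Rag1 (6.85), and 20 of the 50 largest margins were those of listed genes. Just above 0 stood Foxn1 with 0.32, and below 0 stood Aire (-0.04), Cd247 (-0.14), Foxp3 (-0.55) and Ccr7 (-1.25). Cd247 was below 0 through lung-labelled replicate 3 alone, since replicates 1 and 2 were above the highest other array, at 9.44. As the genes had been listed for this pattern, these ranks are a description.

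**Figure D3:**
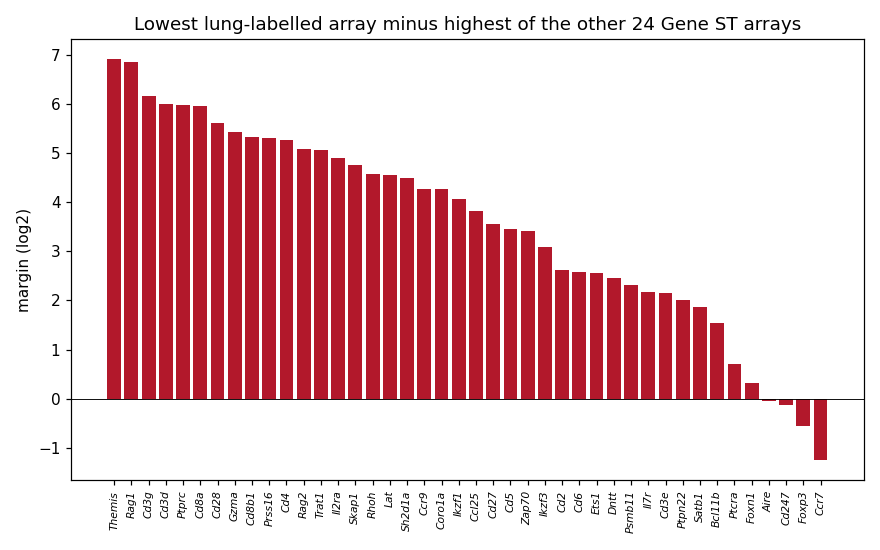
Margin of each listed gene in log2 units, from the lowest lung-labelled array to the highest of the other 24 Gene ST arrays, in descending order. The 4 bars below 0 are Aire, Cd247, Foxp3 and Ccr7.

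Other genes of the same pathway were described from lists that do not hold the 42 genes. All gene lists were chosen with earlier results of these data known, so their counts and p-values here are a description. Of 37 further T-cell development genes, 22 were called higher on the lung-labelled arrays than in trachea and 1 lower, where 5.26% of all genes were called higher and 10.8% lower. The largest were Vav1, an exchange factor in receptor signalling (6.49), the adaptor Sla (5.94), the kinase Txk (5.87) and Tespa1, which acts in thymocyte selection (4.81) on the log2 scale. Id3, an inhibitor of E proteins, was lower by 1.97 (adjusted p = 7.33e-06). Against E17.5 cornea 27 of the 37 were called higher and 1 lower, where 10.8% of all genes were called higher and 12.8% lower. The lower gene there was Klf2 (-1.23), and Id3 (-0.89) was not called. Of 13 further thymic epithelial genes, 3 were called higher than in trachea, namely the growth factor Il7 (4.87), the endocytic receptor Ly75 (3.92) and the protease Ctsl (1.06), and Tbx1 was called lower (-1.22).

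Markers of other blood cells differed in direction between the lung-labelled and trachea arrays, where 5.26% of all genes were called higher and 10.8% lower. Of 15 myeloid genes 0 were called in either direction, with a median difference of 0.32, and 6 passed an unadjusted p under 0.05. Of 10 B-cell genes Blk was called higher (1.60) and Ebf1 lower (-1.63). Of 9 natural killer genes Klrd1, Il2rb and Nkg7 were called higher (by 1.51 to 2.64). Of 10 genes of gamma-delta and innate-like T cells Zbtb16 (-1.41) and Rora (-2.88) were called lower. The other 8 stood 0.24 to 0.94 above trachea, under the 2-fold limit, and 6 of them had limma's adjusted p between 2.18e-06 (Il23r) and 0.00154 (Klrg1). Of 7 erythroid genes 3 were called lower. All 10 cartilage genes were called lower on the lung-labelled arrays. Of 9 heart, thyroid and parathyroid genes, Tg (-6.52), Myh7 (-4.97) and Pth (-2.92) were called lower, while the heart genes Myh6 (0.18), Nppa (0.30) and Myl7 (0.39) were not called. Whether tissue beside the trachea or the lung entered any sample was not tested.

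Trachea and E17.5 cornea gave the levels of these genes in 2 other tissues. The lung-labelled arrays were not compared here, but they stayed in the normalization and in limma's estimate of spread. Of the 42 genes, 0 were called higher in trachea and 4 lower, namely Satb1 (-1.57), Dntt (-1.11), Ccr7 (-1.06) and Cd247 (-1.03). Of all genes 9.56% were called higher and 8.24% lower, 17.8% in all. All 4 had separate arrays, and limma's adjusted p lay between 8.12e-08 for Satb1 and 0.0122 for Cd247. For Cd247 the SD of 1.30 on the lung-labelled arrays entered that value. With only trachea and E17.5 cornea in the fit, 4 genes were also called. Array source and tissue cannot be told apart here either. Ccr7 was not called without cornea replicate 2 or trachea replicate 2, nor Cd247 without cornea replicate 2 or trachea replicate 1, and the count without 1 array ranged from 2 (without cornea replicate 2) to 4.

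Across the 7 cornea ages, 4 of the 42 genes were called by the F test, against 21.7% of all genes. Ptpn22, a phosphatase that restrains receptor signalling, lay between 5.94 and 6.50 on every array up to P14 and was high at P28, with 9.08, 9.17 and 8.71 at P28 against 6.36, 5.94 and 6.06 at E14.5. Ikzf3 read 8.83, 8.55 and 8.90 at P28 against 6.00, 6.52 and 6.50 at E14.5. At P28 every array of both genes lay above every array of the younger ages. The differences between P28 and E14.5 were 2.87 ± 0.14 for Ptpn22 (SE, limma adjusted p = 2.45e-13) and 2.42 ± 0.17 for Ikzf3 (SE, adjusted p = 1.12e-10), in a comparison that called 8.4% of all genes higher and 5.54% lower.

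Ptprc, a gene of all white blood cells, and the CD3 chain Cd3d were not called beside them. Ptprc read 7.46, 7.46 and 7.06 at P28 against 7.99, 7.69 and 7.53 at E14.5. This difference of -0.41 (limma adjusted p = 0.02) missed the call only through the 2-fold limit. Cd3d read 6.44, 6.46 and 6.35 at P28 against 6.78, 6.31 and 6.41 at E14.5. Ccr9 was higher at P28 by 0.88 (adjusted p = 0.000256), with arrays apart, and also missed only the 2-fold limit. Ikzf1, Bcl11b, Cd3e, Cd3g, Lat, Coro1a, Foxp3 and Psmb11 missed it likewise, with differences from -0.567 to -0.265. Trat1 was the third gene called in this comparison, lower at P28 by 1.02 (adjusted p = 0.0229), but its arrays overlapped, with 6.23, 5.47 and 6.06 at P28 against 6.08, 7.42 and 7.31 at E14.5. The call was lost without E14.5 replicate 2 or 3, without P28 replicate 2 and with only these 2 groups in the fit, with adjusted p from 0.00198 to 0.115 over the alternatives run. Over all ages Trat1 ranged from a mean of 5.92 at P28 to 7.69 at P3, and its F test missed the threshold without P28 replicate 2 (adjusted p = 0.0533). Ets1 had its highest mean, 8.71, at E17.5 and its lowest, 7.43, at P28 (F test, adjusted p = 0.00882).

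**Figure D4:**
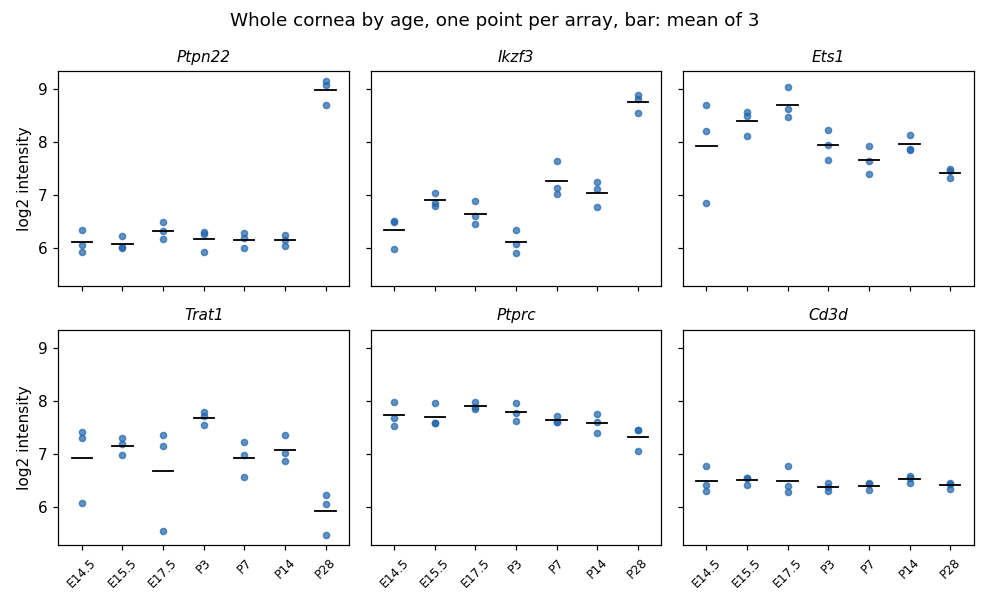
Quantile-normalized log2 intensity in whole cornea at 7 ages, 1 point per array and a bar at the mean of 3. Ptpn22 and Ikzf3 stand apart at P28, with means of 8.98 and 8.76, while Ptprc and Cd3d stay within 1 log2 unit over all arrays.

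The arrays of the 3' type fell into 2 sets by their own control probes. In 9 arrays (small intestine, E16.5 skin and E18.5 skin) the 5' and 3' actin controls differed by -0.45 to -0.05 on the log2 scale, and in the other 17 (bladder, esophagus, stomach and E14.5 skin) by -3.52 to -1.80. Set and group cannot be told apart in any comparison that crosses them. In such comparisons 28 of the 42 genes were called over the 5 tissues of E18.5, against 71.1% of all genes. For each tissue against the other 4, the counts of the 42 genes called (and the shares of all genes) were 13 for small intestine (36.6%), 10 for skin (39.1%), 10 for esophagus (26.1%), 3 for stomach (20.4%) and 5 for bladder (21%). Skin at E18.5 and at E16.5, each against E14.5, had 13 (42.7%) and 10 (43.2%). The genes are therefore described within each set, a choice made after seeing the data.

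Small intestine replicate 3 stood apart in the first set. Its 10 intestinal epithelial markers had a median of 10.10, against 12.80 and 12.89 in replicates 1 and 2, and its 9 epidermal markers had a median of 12.03, against 4.12 and 5.13 in those replicates and 12.05 to 12.34 in skin. Its mean correlation with the other small intestine arrays was 0.908 and its highest with another group 0.901. Ccl25, which the small intestine also makes, read 12.82, 12.44 and 5.57 in small intestine, against 4.76, 4.70 and 4.75 in E18.5 skin. Foxn1, which skin and its hair follicles also express, read 4.14, 8.58 and 11.75 in small intestine, against 12.13, 12.57 and 11.95 in E18.5 skin. For both genes replicate 3 lay on the side of skin.

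With all 3 small intestine arrays, 3 of the 42 genes were called against E18.5 skin, where 8.79% of all genes were called higher and 8.21% lower. Ccl25 was higher by 5.54 ± 1.72 (SE, limma adjusted p = 0.0408), Bcl11b lower (-2.25) and Zap70 lower (-1.61), and Foxn1, with a difference of -4.06, was not called (adjusted p = 0.0897). The Ccl25 call was lost without any 1 of the other 5 arrays compared, with adjusted p up to 0.128. Without replicate 3, 2 genes were called higher and 4 lower, where 11.6% and 10.9% of all genes were. Ccl25 was then higher by 7.89 ± 0.15 (SE, adjusted p = 7.95e-08) and Gzma by 2.33, while Foxn1 (-5.85, adjusted p = 0.00464), Bcl11b (-2.21), Zap70 (-1.51) and Satb1 (-1.21) were lower. The 2 small intestine arrays left differed in Foxn1 by over 4 log2 units. Zap70 was lower on 1 of its 3 probe sets, and Bcl11b on all 4 of its own. The second probe sets of Ccl25 and Foxn1 differed by 0.42 and -0.81 with all 3 arrays. Values of single probe sets come from the whole 3' table normalized at once, where the brightest ones of Ccl25 and Foxn1 differed by 5.19 and -3.79.

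In skin, Satb1 and Bcl11b were lower at E18.5 than at E16.5. Satb1 read 7.85, 7.46 and 7.71 at E18.5, against 9.07, 9.17 and 9.38 at E16.5, and Bcl11b read 10.23, 10.23 and 9.50 at E18.5, against 11.01, 11.36 and 11.25 at E16.5. The arrays of the 2 ages did not overlap. The differences were -1.53 for Satb1 (adjusted p = 0.0233) and -1.22 for Bcl11b (adjusted p = 0.0137), where 1.9% of all genes were called higher and 1.53% lower, and with 1 array left out between 0 and 2 of the genes were called (0 without E18.5 replicate 3 or without E16.5 replicate 2 or 3, and not Satb1 without E18.5 replicate 2 or E16.5 replicate 1). Both were called again without small intestine replicate 3 in the fit, where 2.51% of all genes were called higher and 2.24% lower. With the mean of all probe sets neither was called, and the 1 listed gene called then was another. Over the alternatives run the differences lay between -1.71 and -0.38 for Satb1 and between -1.34 and -0.57 for Bcl11b. Foxn1 was high at both ages, with 12.13, 12.57 and 11.95 at E18.5 and 12.92, 12.98 and 13.12 at E16.5, and was not called.

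In the second set, 7 of the 42 genes were called over esophagus, stomach and bladder of E18.5, against 17.6% of all genes, and 11 without esophagus replicate 1. The bladder mice were Get1 +/-, so tissue and genotype cannot be told apart where bladder enters. Esophagus was called higher than the mean of stomach and bladder in 5 genes and lower in 1, where 3.51% of all genes were called higher and 4.17% lower. Bcl11b read 10.72, 10.93 and 10.97 in esophagus, against 9.58, 9.72 and 9.69 in stomach and 8.18, 7.50 and 7.76 in bladder. Cd5 read 6.16, 7.27 and 7.15 in esophagus, against 5.64, 4.88 and 5.85 in stomach and 4.64, 4.64 and 4.87 in bladder. Neither gene overlapped between esophagus and the other 2 tissues, and the differences were 2.13 for Bcl11b and 1.77 for Cd5, with limma adjusted p of 1.5e-07 and 0.000349. Ptpn22 (1.72), Sh2d1a (1.50) and Ccr9 (1.24) were also higher, and Themis (-1.87) was lower with arrays that overlapped those of bladder. For Bcl11b, 3 of 4 probe sets were higher, and the dimmest differed by -0.05.

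Rag1, a recombinase gene that was dim on all these arrays, and Ptprc, a gene of all white blood cells, were not called in esophagus. Rag1 read 4.42, 6.04 and 4.93 in esophagus, against 5.08, 4.92 and 4.89 in stomach and 4.48, 4.29 and 4.00 in bladder, and Ptprc read 6.23, 7.34 and 6.27 in esophagus, against 7.23, 7.54 and 7.67 in stomach and 6.84, 6.64 and 7.30 in bladder. For Rag1 esophagus overlapped both other tissues, while stomach lay above bladder. Themis was high in stomach, with 8.47, 8.47 and 8.49 in stomach, against 4.50, 4.80 and 5.08 in esophagus and 4.00, 5.95 and 4.62 in bladder, a difference of 3.65 (adjusted p = 9.41e-07). Only the brightest of its 4 probe sets showed it, the other 3 differing by -0.04 to 0.30. Ikzf3 was lower in stomach (-1.37), on 1 of 3 probe sets. Stomach called 3.99% of all genes higher and 2.15% lower. In bladder Bcl11b (-2.45), Themis (-1.78), Cd5 (-1.44) and Sh2d1a (-1.39) were lower and 0 genes higher than the mean of esophagus and stomach, where 4.68% of all genes were called higher and 4.79% lower. For Themis the bladder arrays overlapped those of esophagus and lay below those of stomach alone. Bladder at E16.5 against E14.5 gave 0 called genes of the 42, with 5 at an unadjusted p under 0.05, where 0.313% of all genes were called.

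**Figure D5:**
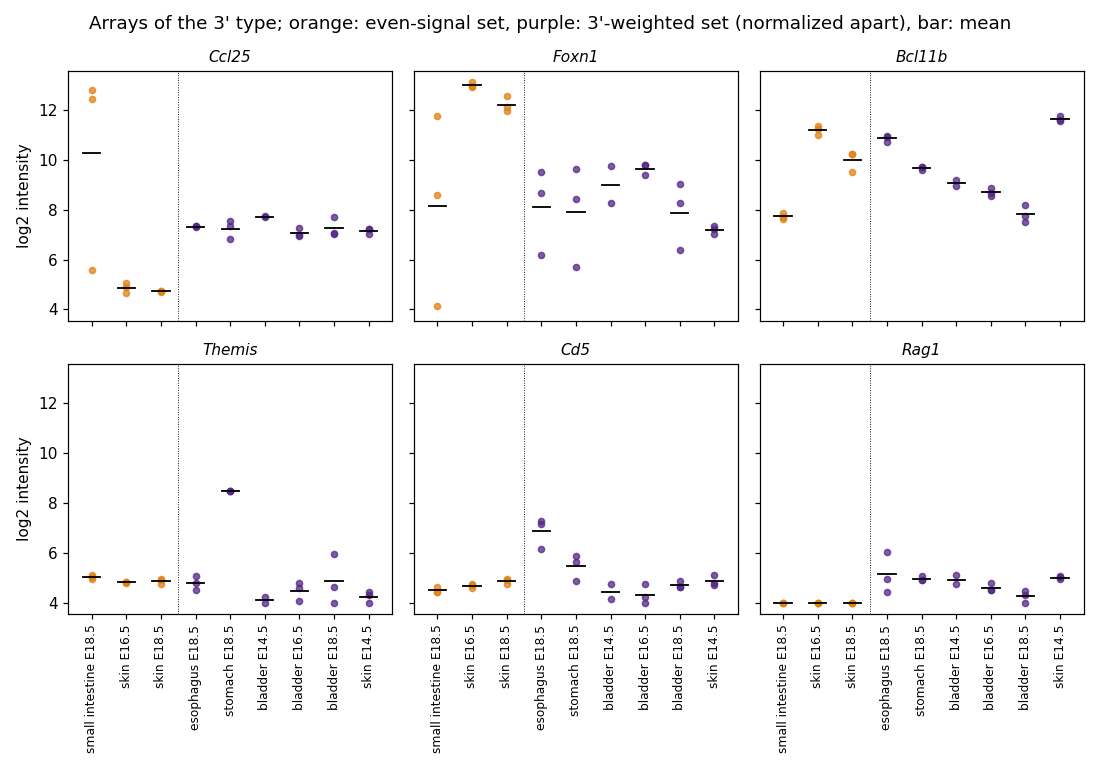
Log2 intensity of 6 listed genes on the arrays of the 3' type, 1 point per array and a bar at the mean, with the first set in orange and the second in purple, normalized separately, so levels are not compared across the dotted line. Small intestine replicate 3 is the low point for Ccl25 and the high one for Foxn1, Themis is high in the 3 stomach arrays, and Rag1 is at most 6.04.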

How the data were processed

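Per the submitters' processing notes the authors used Affymetrix Expression Console 1.1.1 with the PLIER 2.0 summary. They deposited linear intensity values, from 0 to 78718 on the 27 Gene ST arrays and 134762 on the 26 arrays of the 3' type. RNA was extracted with Trizol, per the labels' protocols. The sources used here do not give the authors' normalization between arrays. Intensities dimmer than background were not marked in the files, so differences between dim genes are uncertain, and the number of arrays limits the precision.

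Values were turned into log2(intensity + 16), which understates folds of dim genes, and quantile-normalized within each table or, for comparisons within an array set, within that set. The 2 tables were never compared. Of 35556 Gene ST and 45101 3' probe sets, 21789 and 34958 had 1 gene in the platform annotation, 1621 and 932 several and 12146 and 9211 none. Symbols were updated through RefSeq (GRCm38.p6), where 21698 and 34754 of the probe sets with 1 gene were found. Replicates 1 and 2 of E14.5 skin share an identifier in their titles and were kept as 2 arrays, with their mean as an alternative. The brightest probe set over all arrays of a table stood for each gene. Tests used limma 3.58.1 in R 4.3.3 (lmFit, then eBayes, fitted to every group of a table or set, two-sided, Benjamini-Hochberg adjustment over all named genes), with an adjusted p under 0.05 and a 2-fold limit, and were tested on simulated data. The members and lists were chosen with earlier results of these data known. All listed genes could be named, called ones always, of other lists up to 4 called genes with the largest difference (any lung gene), and the 15 other genes with the largest margin. Blk, Ebf1, Zbtb16, Rora, Klrd1, Il2rb, Nkg7, Il23r, Klrg1, Myh6, Nppa and Myl7, in small counts, and the intestinal and epidermal markers were chosen after their values were seen.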

Additional observations from a re-analysis of the deposited data

Results flagged for a closer look

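For 13 of the 42 genes the change between E14.5 and E16.5 was called as different in skin and bladder by limma's interaction contrast, in which 42.2% of all genes were called. E16.5 skin lies in the first array set and E14.5 skin in the second, and both bladder ages in the second, so array set and age cannot be told apart for skin. The interaction (skin minus bladder, log2) was positive for Foxn1 (4.756, from 5.44 in skin and 0.68 in bladder), Zap70 (2.259), Cd8a (2.204), Rhoh (2.079) and Lat (1.071). It was negative for Ikzf1 (-2.294, from -1.71 in skin and 0.58 in bladder), Satb1 (-1.77), Cd6 (-1.514), Cd247 (-1.323), Ets1 (-1.234), Aire (-1.172), Coro1a (-1.127) and Cd4 (-1.062). The adjusted p was 0.0377 for Foxn1 and 0.00176 for Ikzf1. Replicates 1 and 2 of E14.5 skin bear a common identifier, and with them averaged 9 genes were called, Foxn1, Coro1a and Cd4 missing the threshold and Aire the 2-fold limit. Foxn1 lost the call in 12 of 19 alternatives, with adjusted p from 1.34e-05 to 0.146, and Coro1a in 11 of 19. The bladder change lay between -0.50 (Ets1) and 0.68 (Foxn1) for all 13, and bladder at E16.5 against E14.5, within 1 set, had 0 called members. Ikzf1, Ets1 and Satb1 turn sign with the mean of all probe sets, as given with the processing. Cd8a, Rhoh and Cd247 lost the call with that mean, while Cd4 lost it in 10 of 18 alternatives and Lat in 6 of 18. In E16.5 skin Cd4 averaged 4.00 and Aire 4.01, near the bottom of the scale.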

How the results depend on the processing

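The counts of listed genes at least 2-fold higher on the lung-labelled arrays moved by less than 1.5 times under every alternative run, and lay at 39 to 40 against trachea and 38 to 39 against cornea with 1 array left out. Counts of called members moved by over 1.5 times as follows, across both array sets unless a set is named. As deposited, trachea against cornea had 7 in place of 4. With a pseudocount of 1, small intestine had 23 in place of 13, skin 21 in place of 10, esophagus 17 in place of 10, stomach 15 in place of 3, bladder 16 in place of 5, skin at E18.5 against E14.5 25 in place of 13 and at E16.5 against E14.5 23 in place of 10, and within the sets small intestine 7 in place of 3, stomach 1 in place of 2 and bladder 7 in place of 4. With the mean of all probe sets these were 4 for small intestine, 6 for skin, 5 for esophagus, 1 for stomach, 1 for bladder, 5 for each skin age comparison and 8 in place of 13 for the skin and bladder interaction, and within the sets 1 in place of 2 for stomach and for skin at E18.5 against E16.5. With no fold limit they were 21 for trachea against cornea, 14 over cornea ages, 13 for cornea P28 against E14.5, 27 for small intestine, 26 for skin, 23 for esophagus, 16 for stomach, 17 for bladder, 23 for E18.5 and 24 for E16.5 against E14.5 skin, and within the sets 8 for small intestine, 13 over the 3 tissues and 11 each for esophagus and bladder. With only genes above the median they were 12 in place of 28 over the E18.5 tissues, 6 for small intestine, 6 for skin, 5 for esophagus, 1 for stomach, 3 for bladder, 8 for E18.5 and 5 for E16.5 against E14.5 skin, 6 for the interaction, and within the second set 4 over the 3 tissues and 1 for stomach. Within the array sets, small intestine and skin had 3, the E18.5 tissues 7 and esophagus 6.

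With each array left out, the counts lay at 2 to 4 for trachea against cornea, 3 to 5 over cornea ages, 2 to 4 for cornea P28 against E14.5, 26 to 29 over the E18.5 tissues, 13 to 14 for small intestine, 10 to 12 for skin, 9 to 12 for esophagus, 4 to 7 for bladder, 12 to 17 and 10 to 14 for E18.5 and E16.5 against E14.5 skin, 9 to 14 for the interaction, and within the sets 2 to 6 for small intestine (6 without its replicate 3), 0 to 2 for skin at E18.5 against E16.5, 7 to 11 over the 3 tissues, 6 to 7 for esophagus, 2 to 3 for stomach and 5 to 6 for bladder.

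With the replicate block, esophagus and stomach were compared only with each other, and 3 members were called. That count is not set against those of the main comparisons, in which each of them stood against the other 4 tissues. The block left the counts for the lung-labelled arrays against trachea (40 members, 22 further T-cell genes) as they were. It also left those over cornea ages (4) and for cornea P28 against E14.5 (3). Deviations of same-numbered arrays correlated at -0.071 to -0.012 for lung-labelled and trachea and -0.054 to 0.028 for cornea P28 and E14.5. For stomach and esophagus, which both bear the numbers 1, 2 and 4, they correlated at 0.064 to 0.13. Cornea of E14.5 and of P28 cannot come from the same animal. For the other groups, with 3 arrays per group, these values cannot decide whether same-numbered arrays are paired. Of 140 gene results, 59 kept direction and call under every alternative, 71 lost the call under at least 1, and 12 turned sign, all with the mean of all probe sets: Ets1 for small intestine (0.63), Satb1 for skin (0.98), Ets1 (0.26), Satb1 (0.17), Bcl11b (0.66) and Skap1 (0.10) for E18.5 against E14.5 skin, Ikzf1 (0.45), Ets1 (0.30) and Satb1 (0.54) for E16.5 against E14.5 skin, and Ikzf1 (0.06), Ets1 (0.44) and Satb1 (0.67) for the interaction, where probe sets of these genes disagreed. All within-set comparisons were chosen after seeing the data.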

Other observations

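Among genes outside the lists, the largest margins of the lung-labelled arrays over the other 24 Gene ST arrays were those of Bin2 (6.28) and Fam169b (6.17). Next came 2 milk caseins, Csn1s1 (5.80) and Csn2 (5.68). Csn2 read 14.70 on each lung-labelled array and at most 9.02 on any other array. Quantile normalization gives equal ranks the same value, so this equality does not measure how closely the arrays matched. The lymphocyte receptor Slamf6 (5.56), the chemokine Cxcl10 (5.36), Cd74, the invariant chain of class II molecules (5.30), and Dock2, an activator of Rac in white blood cells (4.78), were also among the 15 largest. As these genes were ranked by the same arrays, the values are a description.

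Cell cycle genes were also higher on the lung-labelled arrays. Of 24 measured, 21 were called higher than in trachea and 0 lower, and 20 were called higher than in E17.5 cornea, where 5.26% and 10.8% of all genes were called higher. The ribonucleotide reductase subunit Rrm2 differed from trachea by 2.02 (limma adjusted p = 1.14e-08) and the helicase subunit Mcm7 by 1.82 (adjusted p = 4.69e-12). Of 8 airway genes 5 were called lower than in trachea, with Cyp2f2 (-6.26) and Scgb3a2 (-6.10) lowest, and Bpifa1, chosen after its value was seen, was called higher (2.25).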
